A study of Homo sapiens with 9 samples.

Results

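The genes described here are 10 of the epithelial-mesenchymal transition (EMT), out of 60612 genes in the deposited table. They were taken by gene symbol: the transcription factors SNAI1, SNAI2, ZEB1, ZEB2, TWIST1, TWIST2 and PRRX1, and the mesenchymal markers VIM, CDH2 and CDH11. The cells were MDA-MB-231, an established human line from a triple-negative breast cancer, which is a cancer without oestrogen receptor, progesterone receptor or HER2 amplification. They were transfected with a control siRNA, with MILIP siRNA1 or with MILIP siRNA2, and 3 libraries of each group were sequenced 48 hours later, 9 in all. No allele or drug was added in any group, and all groups went through the same lipid transfection. MILIP, listed in the table as MAFG-DT, is a long noncoding RNA, and the study asked what changes when it is depleted. The title and treatment labels name MILIP, but the transfection protocol in the labels names a different RNA, PLANE, as the siRNA target. All results come from 1 cell line. Nothing in the labels marks the 3 libraries of a group as separate cultures, and p-values therefore cover only a spread between libraries that may be technical.

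EMT is the programme by which epithelial cells lose junctions and polarity and become motile. SNAI1 and SNAI2 are zinc finger repressors, and ZEB1 and ZEB2 are zinc finger and homeodomain repressors, that bind E-box sequences of epithelial genes such as CDH1, the gene of E-cadherin. TWIST1 and TWIST2 are basic helix-loop-helix factors, and PRRX1 is a homeobox factor of mesenchyme. VIM encodes vimentin, the main intermediate filament of mesenchymal cells, while CDH2 and CDH11 encode N-cadherin and cadherin-11, adhesion molecules of mesenchymal cells. MDA-MB-231 is known as a mesenchymal-like, basal B breast cancer line.

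Libraries held 15281220 to 19759371 counts, and 15345 genes had enough counts to be tested. A count of 0 in a library allows up to 3 counts, or 0.152 to 0.196 CPM (counts per 1e+06 counts of the library), by counting error alone. MAFG-DT had counts of 133, 126 and 148 under control siRNA, of 19, 11 and 37 under siRNA1, and of 10, 19 and 6 under siRNA2. The mean level fell from 8.41 ± 0.254 CPM in controls to 1.24 ± 0.641 CPM (siRNA1) and 0.616 ± 0.316 CPM (siRNA2; SD, n = 3 each), with no overlap between control and siRNA libraries and a two-sided exact permutation p of 0.1 for each siRNA, the smallest that 3 against 3 libraries allow. All 8 basal B markers on a list of that line's genes (VIM, CD44, AXL, MSN, CAV1, CAV2, EGFR and TGFBI) were detected in every group. Of the receptors, PGR had 0 counts in control and siRNA1 libraries and ESR1 was at 0.454 CPM in controls, while ERBB2 was at 61.4 CPM. Both siRNAs changed a large share of the transcriptome at an adjusted p below 0.05 (edgeR quasi-likelihood test, Benjamini-Hochberg adjustment over all 15345 genes): 50.4% of tested genes with siRNA1, 56.1% with siRNA2, and 60.4% between the siRNAs.

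Of the 10 genes, 8 could be tested. SNAI1 rose with both siRNAs, by 3.85-fold and 3.47-fold, and ZEB1 fell with both, by 1.83-fold and 1.32-fold. SNAI2 and ZEB2 fell with siRNA1 and rose with siRNA2. Over all 15345 tested genes, 1809 rose with both siRNAs, 1704 fell with both and 1524 were called in opposite directions. VIM stayed among the most abundant transcripts in every library, and CDH2 and CDH11 were low, at 0.185 to 1.74 CPM. With siRNA1, 3 genes rose (SNAI1, CDH2 and CDH11) and 3 fell (SNAI2, ZEB1 and ZEB2), beside 25.1% of all tested genes higher and 25.3% lower. With siRNA2, 3 rose (SNAI1, SNAI2 and ZEB2) and 3 fell (ZEB1, PRRX1 and VIM), beside 27.2% and 28.9% of all tested genes. Between the siRNAs, 3 were higher with siRNA2 (SNAI2, ZEB1 and ZEB2) and 2 lower (VIM and CDH2), beside 28.4% and 32% of all tested genes. Each comparison called 5 or 6 of these genes in a background where more than 50% of genes were called, so the number called does not set them apart from other genes. The median log2 fold change over the 8 tested genes was -0.39 with siRNA1 and 0.17 with siRNA2, against 0.00 and -0.01 over all tested genes. Both comparisons with control use the same 3 control libraries. The low-count filter bears on a pair of members: CDH2 passed it only through the 3 siRNA1 libraries, and PRRX1 reached its level in 3 control, 2 siRNA1 and 1 siRNA2 library. Leaving CDH2 out, 2 members rose with siRNA1 and 1 was lower with siRNA2 than with siRNA1. The medians above include CDH2. Without CDH2, the middle log2 fold change was that of PRRX1 with siRNA1 (-0.73) and that of CDH11 with siRNA2 (0.31).

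**Figure D1:**
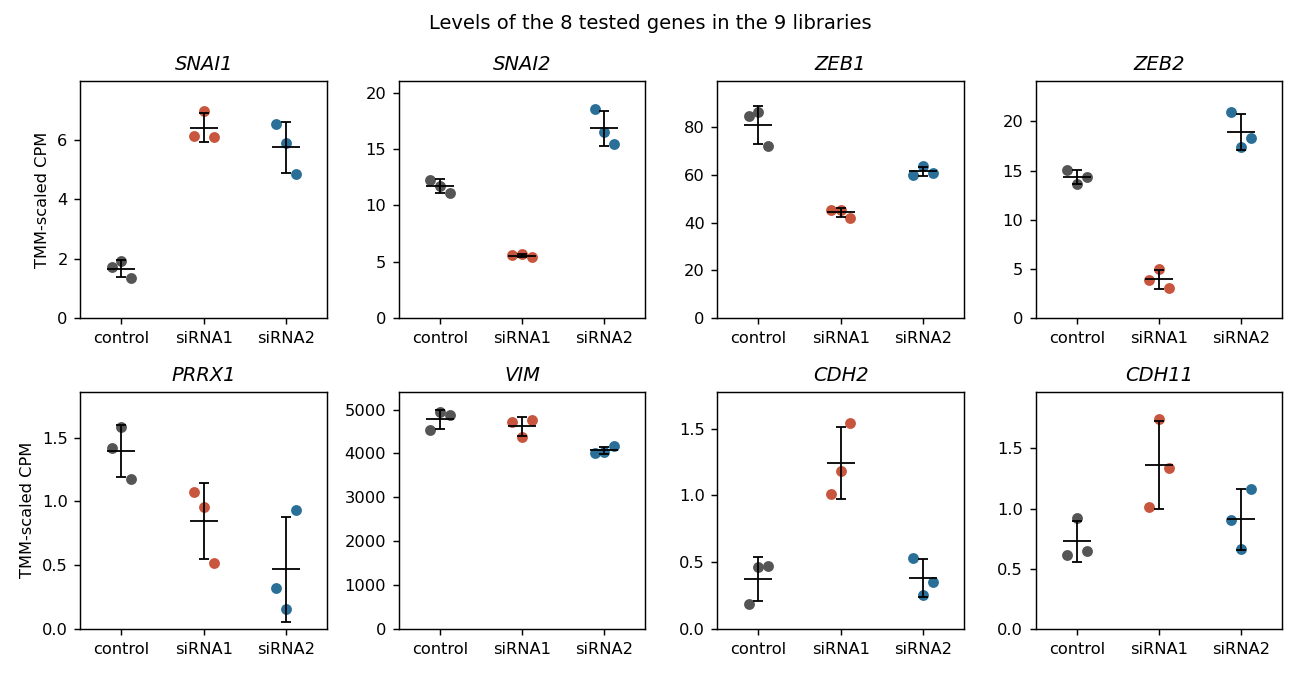
TMM-scaled CPM (linear axes from 0, one scale per gene) of the 8 tested genes in the 9 libraries. Points are libraries, horizontal bars the mean and vertical bars the SD of 3 libraries. SNAI1 libraries of both siRNAs (4.83 to 6.96 CPM) lie above the controls (1.35 to 1.92 CPM), while SNAI2 and ZEB2 libraries lie below the controls with siRNA1 and above them with siRNA2.

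SNAI1 encodes Snail, a short-lived repressor of CDH1. Its gene lies on the plus strand of chromosome 20 (chr20:49982980-49988886, GRCh38), with 3 exons. The control libraries held 1.73, 1.92 and 1.35 CPM, from 28, 29 and 23 counts. The siRNA1 libraries held 6.14, 6.96 and 6.11 CPM, and the siRNA2 libraries 6.51, 5.89 and 4.83 CPM. Every siRNA library was above every control library, and the siRNA groups overlapped each other. On the log2 scale the rise with siRNA1 was 1.95 (SE 0.195, adjusted p = 7.98e-09), and siRNA2 gave 1.79 (SE 0.196, adjusted p = 2.61e-08). The difference between the siRNAs was -0.15 (SE 0.156, adjusted p = 0.412) and did not pass the test. No annotated gene overlaps SNAI1, so its counts share no positions with another transcript.

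SNAI2 encodes Slug, the close relative of Snail. Its level was 12.3, 11.8 and 11.1 CPM in the control libraries. It was 5.57, 5.67 and 5.39 CPM with siRNA1 and 18.5, 16.6 and 15.4 CPM with siRNA2. The 3 groups did not overlap, with the siRNA1 libraries lowest and the siRNA2 libraries highest. SNAI2 fell 2.11-fold with siRNA1 (log2 -1.08, SE 0.123, adjusted p = 7.33e-08) and rose 1.44-fold with siRNA2 (log2 0.52, SE 0.107, adjusted p = 0.000181). It was 3.04-fold higher with siRNA2 than with siRNA1 (log2 1.60, SE 0.117, adjusted p = 1.43e-11).

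ZEB1 was the most abundant of the 7 factors. It lies on the plus strand of chromosome 10 (chr10:31318495-31529814). The control libraries held 84.8, 86.4 and 71.9 CPM, the siRNA1 libraries 45.4, 45.4 and 42.1 CPM, and the siRNA2 libraries 60.1, 63.6 and 61.0 CPM. The groups did not overlap: controls were highest, siRNA2 libraries intermediate and siRNA1 libraries lowest. ZEB1 fell by 0.87 on the log2 scale with siRNA1 (SE 0.0756, adjusted p = 6.39e-10) and by 0.40 with siRNA2 (SE 0.0738, adjusted p = 6.17e-05). It was 1.39-fold higher with siRNA2 than with siRNA1 (log2 0.48, SE 0.0759, adjusted p = 6.78e-06). ZEB1-AS1, a transcript of the opposite strand that shares 366 exonic bases with ZEB1, was at 5.26 CPM in controls, 8.33 CPM with siRNA1 and 3.44 CPM with siRNA2. It rose with siRNA1 (log2 0.66, adjusted p = 0.000963) and fell with siRNA2 (log2 -0.62, adjusted p = 0.00387). No source used here says whether the counting used strand, and reads of the shared bases cannot be assigned to ZEB1 or to ZEB1-AS1.

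ZEB2 lies on the minus strand of chromosome 2 (chr2:144364364-144521057). It was at 15.1, 13.7 and 14.3 CPM in the control libraries, at 3.86, 5.00 and 3.08 CPM with siRNA1, and at 20.9, 17.4 and 18.3 CPM with siRNA2. Again no group overlapped another, with siRNA1 lowest and siRNA2 highest. ZEB2 fell 3.62-fold with siRNA1 (log2 -1.86, SE 0.145, adjusted p = 9.59e-11), the largest fall among the 8 tested genes with that siRNA. With siRNA2 it rose 1.31-fold (log2 0.39, SE 0.118, adjusted p = 0.00634). The rise with siRNA2 missed the threshold without the first siRNA2 library (log2 0.31, adjusted p = 0.0532). The difference between the siRNAs was 4.76-fold (log2 2.25, SE 0.14, adjusted p = 6.45e-13). Its antisense gene ZEB2-AS1 had 0 counts in all 9 libraries.

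**Figure D2:**
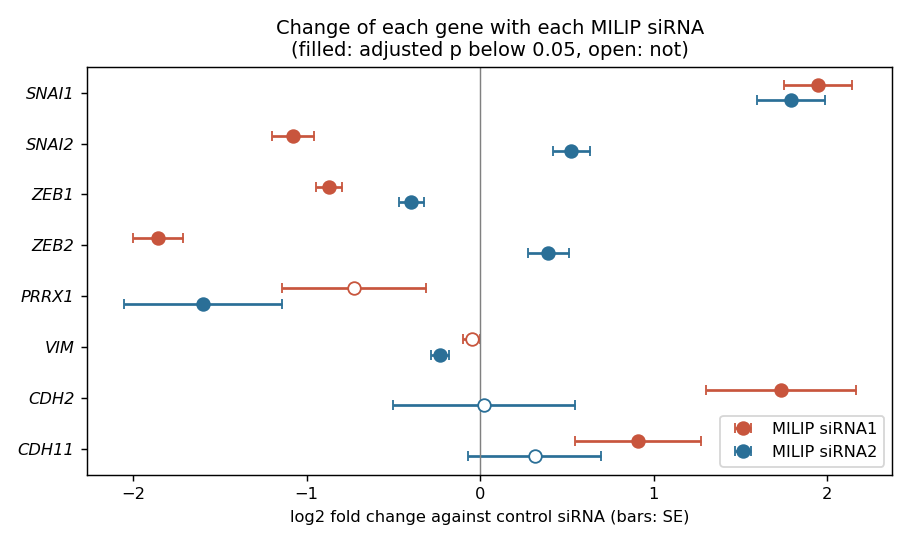
Log2 fold change of each tested gene with siRNA1 and with siRNA2 against control siRNA, with the SE derived from the test's F statistic as bars. Filled points passed an adjusted p of 0.05 and open points did not. SNAI1 lies at 1.95 and 1.79 and ZEB1 at -0.87 and -0.40, while SNAI2 (-1.08 and 0.52) and ZEB2 (-1.86 and 0.39) lie on opposite sides of 0.

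The 3 prime untranslated regions (UTRs) of these genes are shown because an siRNA can lower transcripts that match only its seed, and because microRNAs of the miR-200 family act on ZEB1 and ZEB2 through such sites. Over 12568 UTRs (the longest per gene, GENCODE v29), the 7-base word most strongly linked to lower levels with siRNA1 was AATTCCA, and with siRNA2 it was GACCCTA. The siRNA sequences are not in the labels, so whether these words match the siRNA seeds cannot be checked. Both words occur in MILIP itself and were searched on the transcript strand only. With siRNA2 the words ranked 2 and 3, ACCCTAA and CCCTAAT, do not occur in MILIP. With siRNA1 ATTCCAA, ranked 2, does and TTCCAAA, ranked 3, does not. AATTCCA and GACCCTA were picked on these fold changes and are a description. Under siRNA1 the median log2 fold change was -0.22 over the 2110 genes with AATTCCA, against 0.04 over those without it. Under siRNA2 it was -0.32 over the 665 genes with GACCCTA, against 0.01. Neither contrast was matched for UTR length or base content, and long UTRs hold each word more often than short ones. ZEB2 holds AATTCCA at 3 places, ZEB1 and PRRX1 at 1 each, and the other 7 genes at none. The word is in 16.8% of all UTRs, in 45.1% of UTRs within 1.2-fold of the length of ZEB2's, and in 23.7% of those near the length of ZEB1's. GACCCTA occurs once, in ZEB2, and is in 5.29% of all UTRs and in 13.2% of those near its length. Each site follows with its flanks on the transcript strand, with the word in capitals.
ZEB2, chr2:144388241-144388247, minus strand: caattactggaAATTCCAaatttgggaac
ZEB2, chr2:144388182-144388188, minus strand: tttcgactgaaAATTCCActttcttcatc
ZEB2, chr2:144387854-144387860, minus strand: ctgttttttaaAATTCCAtacctatgtac
ZEB1, chr10:31529702-31529708, plus strand: tttttgcttctAATTCCAgaatatatgtt
PRRX1, chr1:170737593-170737599, plus strand: aggtttttctaAATTCCAacatttaaaag
ZEB2, chr2:144387433-144387439, minus strand: ttttacaagatGACCCTAatattcagaat

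Set beside the levels, the sites and the changes were not matched in every gene. ZEB2 with 3 sites and ZEB1 with 1 both fell with siRNA1. PRRX1 with 1 site had a log2 fold change of -0.73 that did not pass the test (adjusted p = 0.15). SNAI2, which holds neither word, fell with siRNA1, and ZEB2 rose with siRNA2 while holding the word linked to siRNA2. SNAI1, which rose with both siRNAs, holds neither. The part of these words in the changes was not tested.

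The miR-200 family consists of small RNAs that repress ZEB1 and ZEB2 and that are themselves repressed by the ZEB proteins. Its members fall into 2 seed groups, of which 1 sequence each is shown with the seed (bases 2 to 8) in capitals, from RefSeq (GRCh38.p14), followed by a site in ZEB1 and a site in ZEB2 on the transcript strand.
hsa-miR-200b-3p: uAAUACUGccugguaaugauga
hsa-miR-200a-3p: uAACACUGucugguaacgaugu
ZEB1, chr10:31527633-31527639, plus strand: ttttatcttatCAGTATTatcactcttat
ZEB2, chr2:144389053-144389059, minus strand: ctaccatacatCAGTATTtttattattat

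The match of the first seed, CAGTATT, which also serves miR-200c and miR-429, was found 6 times in the ZEB1 UTR and 5 times in the ZEB2 UTR. It was found once each in SNAI2 and CDH11, and not in the other 6. At least 1 such match is in 19.1% of all UTRs, in 29% of those near the length of ZEB1's and in 46.6% of those near the length of ZEB2's. The match of the second seed, CAGTGTT, shared with miR-141, was found 3 times in ZEB1 and 4 times in ZEB2 and in no other of the 10. It is in 21.2% of all UTRs, in 31.5% of those near ZEB1's length and in 53.6% of those near ZEB2's. The match of the miR-205 seed, ATGAAGG, was found once in ZEB1 and 3 times in CDH11. It is in 13.4% of all UTRs, in 18.8% of those near ZEB1's length and in 28.9% of those near CDH11's. The host transcripts MIR200CHG, of miR-200c, and MIR205HG had 0 counts in all 9 libraries, and small RNAs themselves were not measured. The genes of miR-200b, miR-200a and miR-429 lie on chromosome 1, apart from those of miR-200c and miR-141 on chromosome 12. No level of a host transcript of the chromosome 1 genes is given here.

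**Figure D3:**
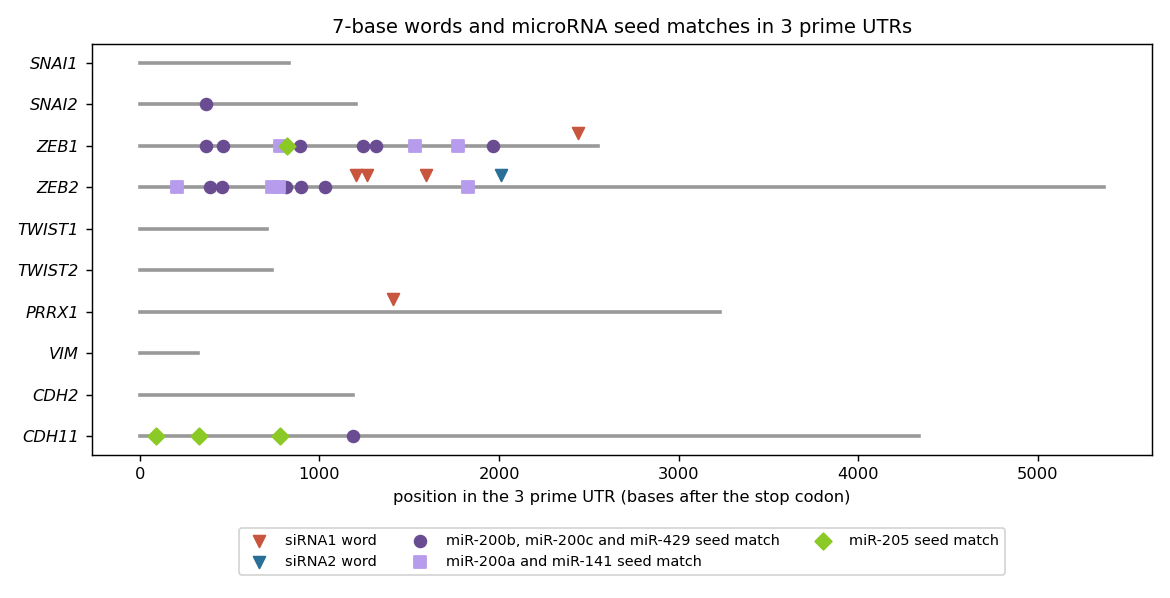
Position of each match in the 3 prime UTR of the 10 genes, in bases after the stop codon, to scale. Grey lines are the UTRs, triangles the words linked to each siRNA, and circles, squares and diamonds the microRNA seed matches. ZEB1 and ZEB2 carry 9 miR-200 matches each, and the UTRs of SNAI1, VIM, CDH2, TWIST1 and TWIST2 carry no symbol.

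TWIST1 and TWIST2 had 0 counts in all 9 libraries. Their levels are therefore at most 0.152 to 0.196 CPM in a library, by counting error alone, and no comparison was possible. PRRX1, on chromosome 1 (chr1:170662728-170739421), was low throughout. The counts behind it were 23, 24 and 20 in controls, 17, 17 and 10 under siRNA1, and 6, 3 and 16 under siRNA2. In CPM the control libraries held 1.42, 1.59 and 1.18, the siRNA1 libraries 1.08, 0.955 and 0.513, and the siRNA2 libraries 0.320, 0.152 and 0.932. All siRNA libraries were below all controls, and the siRNA groups overlapped. PRRX1 fell with siRNA2 (log2 -1.60, SE 0.456, adjusted p = 0.00429), and the value moved to -2.53 without siRNA2 library 3. Without that library PRRX1 was also lower with siRNA2 than with siRNA1 (log2 -1.80, adjusted p = 0.00835), a difference that did not pass with all libraries (log2 -0.87, adjusted p = 0.128).

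To compare the factors with each other, levels per length are needed, and the deposited FPKM values (fragments scaled by exonic length and library total) were used. In control libraries ZEB1 stood at 9.30 FPKM, SNAI2 at 3.54, SNAI1 at 0.967, ZEB2 at 0.547 and PRRX1 at 0.167, and no 2 neighbours in this order overlapped. With siRNA1 the order of the SNAI genes was exchanged: ZEB1 stood at 5.18 FPKM, SNAI1 at 3.80, SNAI2 at 1.71, ZEB2 at 0.153 and PRRX1 at 0.103, and only ZEB2 and PRRX1 overlapped. With siRNA2 the order was again ZEB1 at 7.07, SNAI2 at 5.09, SNAI1 at 3.34, ZEB2 at 0.717 and PRRX1 at 0.0567 FPKM, without overlap. The divisor is the size of all annotated exons, which is 26111 bases for ZEB2 against 8650 for ZEB1, 3281 for SNAI2 and 1705 for SNAI1, so the place of ZEB2 depends on it.

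The summed FPKM of the 7 factors was 14.5 ± 1.31 in controls, 10.9 ± 0.602 with siRNA1 and 16.3 ± 0.767 with siRNA2 (SD, n = 3 each). The siRNA1 libraries (10.37 to 11.57) lay below the controls (13.01 to 15.3), while every siRNA2 library (15.42 to 16.91) lay above them. ZEB1 made up 64.0% ± 0.865 of this sum in controls, 47.3% ± 1.17 with siRNA1 and 43.5% ± 2.88 with siRNA2. SNAI1 made up 6.62% ± 0.637, 34.7% ± 1.37 and 20.5% ± 1.88. SNAI2 made up 24.5% ± 1.21, 15.6% ± 0.402 and 31.3% ± 1.25. The ratio of SNAI1 to SNAI2 was 0.272 in controls (0.234 to 0.313), 2.22 with siRNA1 (2.12 to 2.36) and 0.654 with siRNA2 (0.603 to 0.684). The ratio of ZEB1 to ZEB2 was 17.0 (15.2 to 19.0), 34.7 (28.1 to 40.9) and 9.94 (8.62 to 11.1) in the same order, and neither ratio overlapped between groups.

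**Figure D4:**
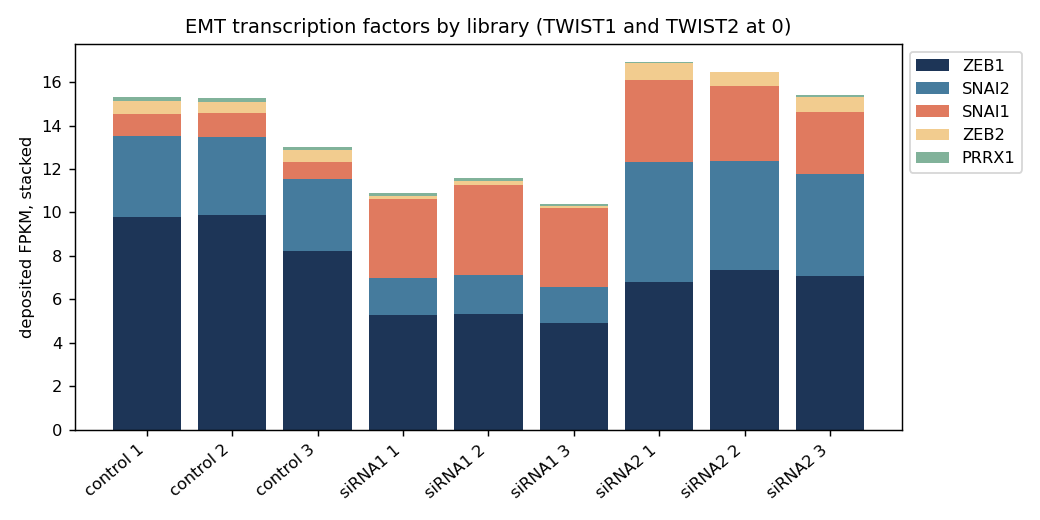
Deposited FPKM of the EMT transcription factors in each of the 9 libraries, stacked on a linear axis from 0 (single libraries, no error bars). The stack is lowest with siRNA1 (10.37 to 11.57 FPKM), and the SNAI1 segment is 6.62% of it on average in controls, 34.7% with siRNA1 and 20.5% with siRNA2.

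VIM, on the plus strand of chromosome 10 (chr10:17228241-17237593), took 0.393% to 0.490% of all counts of a library and was the 8th to 10th gene by count. By FPKM, which allows for length, VIM ranked from 29 to 33. The control libraries held 4530, 4942 and 4867 CPM, the siRNA1 libraries 4718, 4368 and 4771 CPM, and the siRNA2 libraries 4013, 4043 and 4162 CPM. The siRNA1 libraries overlapped the controls, and the siRNA2 libraries lay below both. VIM fell 1.17-fold with siRNA2 (log2 -0.23, SE 0.05, adjusted p = 0.000338), and its log2 fold change with siRNA1 was -0.05 (SE 0.05, adjusted p = 0.435). It was also lower with siRNA2 than with siRNA1 (log2 -0.18, SE 0.05, adjusted p = 0.00294). The precision differs widely between the markers: these SEs of VIM compare with an SE of 0.525 for CDH2. VIM-AS1, which shares 641 exonic bases with VIM on the opposite strand, was at 6.09, 6.00 and 10.0 CPM in the 3 groups and rose with siRNA2 (log2 0.71, adjusted p = 0.000355).

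CDH2, on the minus strand of chromosome 18 (chr18:27932879-28177946), had counts of 3, 7 and 8 in controls, 16, 21 and 30 with siRNA1, and 10, 5 and 6 with siRNA2. In CPM this was 0.185, 0.462 and 0.470, then 1.01, 1.18 and 1.54, then 0.534, 0.254 and 0.349. The siRNA1 libraries lay above all others, and control and siRNA2 libraries overlapped. CDH2 rose with siRNA1 (log2 1.73, SE 0.433, adjusted p = 0.00169) and was 3.27-fold lower with siRNA2 than with siRNA1 (log2 -1.71, SE 0.418, adjusted p = 0.00103). CDH2 was tested only because the 3 siRNA1 libraries passed the filter, so a call here could only show it high in that group. Against control, siRNA2 gave 0.02 (SE 0.525, adjusted p = 0.975), a value whose sign turned when 1 library was left out (-0.28 without the first control library and -0.31 without the first siRNA2 library).

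CDH11, on the minus strand of chromosome 16 (chr16:64943753-65126112), was at 0.617, 0.925 and 0.646 CPM in the control libraries. It was at 1.01, 1.74 and 1.33 CPM with siRNA1, and at 0.908, 0.660 and 1.16 CPM with siRNA2, so that the siRNA1 libraries lay above the controls and the siRNA2 libraries overlapped both groups. It rose with siRNA1 at the edge of the threshold (log2 0.91, SE 0.362, adjusted p = 0.0389). The call was lost with DESeq2 (adjusted p = 0.0756), without control library 1 or 3 (0.123 and 0.116) and without siRNA1 library 2 or 3 (0.179 and 0.0777). Under siRNA2 the value was 0.31 (SE 0.383, adjusted p = 0.508). By FPKM the markers kept no common order below VIM. CDH11 (0.0567) and CDH2 (0.04) overlapped in controls and again with siRNA1 (0.103 and 0.147) and siRNA2 (0.07 and 0.0433).

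The genes whose levels most resembled the called members over the 9 libraries were taken from 11175 tested genes by Pearson r of log2 CPM. These genes had a mean of at least 1 CPM. Left out by name were symbols formed like clone or accession names, LINC, antisense and divergent transcripts, and every symbol ending in P and a number. The last rule also removed protein-coding genes such as MMP14, so a more similar gene could have been missed. The libraries form 3 groups, so r mainly reflects the 3 group means and is given only as a measure of likeness. For SNAI1 the most alike genes were NUAK1 (r = 0.996), CASTOR3 (0.994) and DAB2IP (0.993). NUAK1, an AMPK-related kinase, was at 44.3 CPM in controls, 85.1 with siRNA1 and 78.0 with siRNA2. For SNAI2 they were TICAM1, CHST11 and GTF2H1 (r = 0.996 each). TICAM1, the adaptor of Toll-like receptor 3, was at 18.9, 7.67 and 33.2 CPM. For ZEB1 they were TMCC3 (r = 0.995), YEATS2 (0.993) and ATP6V0A2 (0.993), and for ZEB2 TIMM10B (0.995), YIPF6 (0.993) and DNAJC10 (0.993). TMCC3 was at 31.3, 14.1 and 22.1 CPM and TIMM10B at 18.6, 6.70 and 22.7 CPM.

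Other transcription factors linked to EMT were mixed. Of 16 listed, 10 could be tested: 3 rose and 3 fell with siRNA1, and 4 rose and 5 fell with siRNA2, with median log2 fold changes of 0.10 and -0.30. Over all tested genes, 25.1% rose and 25.3% fell with siRNA1, and 27.2% rose and 28.9% fell with siRNA2. HMGA2, a chromatin protein known to act upstream of SNAI1, rose from 144 CPM to 293 CPM with siRNA1 (log2 1.03, adjusted p = 5.44e-12) and 333 CPM with siRNA2 (log2 1.21, adjusted p = 2.04e-13). ETS1 fell with siRNA1 (log2 -0.51) and rose with siRNA2 (log2 0.45), whereas TCF3, the E12 and E47 gene, rose with siRNA1 (log2 0.39) and fell with siRNA2 (log2 -0.76). The ID proteins bind E proteins such as that of TCF3 and keep them from DNA. All 4 ID genes rose with siRNA1 and 3 rose with siRNA2, beside 25.1% and 27.2% of all tested genes. ID1 was at 124, 229 and 479 CPM in controls, siRNA1 and siRNA2, and ID3 at 58.1, 169 and 149 CPM. ID2 was low, at 0.805, 4.95 and 1.94 CPM, and ID4 with siRNA2 did not pass (log2 0.39, adjusted p = 0.212).

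Among epithelial genes that SNAI and ZEB proteins are known to repress, 15 of 18 listed could be tested. With siRNA1 10 rose and 1 fell (median log2 0.72), beside 25.1% and 25.3% of all tested genes, and with siRNA2 5 rose and 4 fell (median log2 0.03), beside 27.2% and 28.9%. Between the siRNAs, 1 was higher and 8 were lower with siRNA2 (median log2 -0.41), beside 28.4% and 32%. No test was made of the list as a whole. CDH1 had 12, 9 and 8 counts in controls, 36, 21 and 38 with siRNA1, and 24, 24 and 14 with siRNA2. It rose with siRNA1 (log2 1.57, adjusted p = 0.000843), and its value with siRNA2 was 0.88 (adjusted p = 0.0559). LLGL2, a polarity gene, rose from 9.74 CPM to 17.5 and 16.4 CPM (log2 0.84 and 0.75). Those that fell with siRNA2 were EPCAM (log2 -0.75), PKP2 (-0.42), CLDN1 (-0.28) and DSP (-0.26). PKP2 and CLDN1 had risen with siRNA1 (log2 1.02 and 0.31), and the gene that fell with siRNA1 was ESRP2 (log2 -0.47). ST14 and MUC1 passed the test with both siRNAs from low counts: ST14 had 3, 2 and 3 counts in controls and 2 to 19 in the siRNA libraries, and MUC1 5 to 8 and 7 to 32, with an adjusted p of 0.05 for siRNA2. ST14 reached the filter level in 0 control, 2 siRNA1 and 1 siRNA2 libraries, and MUC1 in 0, 2 and 2. Both were thus tested only through siRNA libraries, and both count among the genes that rose with each siRNA. Of the epithelial transcription factors that oppose EMT, 8 of 12 could be tested: 4 rose and 2 fell with siRNA1, and 5 rose and 1 fell with siRNA2. Beside these stand the same shares of all tested genes, 25.1% and 25.3% with siRNA1 and 27.2% and 28.9% with siRNA2. ELF3 rose from 0.887 CPM to 4.45 and 4.12 CPM (log2 2.31 and 2.20). GRHL3 had 2, 0 and 1 counts in controls, 29, 63 and 58 with siRNA1, and 19, 20 and 11 with siRNA2. It reached the filter level in 0 control, 3 siRNA1 and 3 siRNA2 libraries, and counts among the factors that rose with each siRNA. TFAP2C rose with siRNA1 (81.2 to 172 CPM, log2 1.08) and fell with siRNA2 (51.9 CPM, log2 -0.65).

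Of 26 other mesenchymal genes listed, 22 could be tested: 5 rose and 10 fell with siRNA1 (median log2 -0.34), whereas 18 rose and 1 fell with siRNA2 (median log2 0.81). Over all tested genes, 25.1% rose and 25.3% fell with siRNA1, and 27.2% rose and 28.9% fell with siRNA2. Between the siRNAs, 17 were higher and 1 lower with siRNA2 (median log2 1.39), against 28.4% and 32% of all genes tested. CALD1, the actin-binding caldesmon, was at 21.4 CPM in controls, 7.24 CPM with siRNA1 (log2 -1.56) and 49.7 CPM with siRNA2 (log2 1.22). PDGFRB rose from 1.23 CPM to 7.57 and 6.84 CPM, and COL1A1 from 8.25 CPM to 45.1 and 61.3 CPM (log2 2.45 and 2.90). THY1, also a fibroblast marker, fell with both, from 3.26 CPM to 2.03 and 2.29 CPM (log2 -0.68, adjusted p = 0.0146, and -0.52, adjusted p = 0.0492). COL1A2 (35, 44 and 36 counts) and COL3A1 (24, 21 and 22 counts) were counted as risen with siRNA2 from at most 1 count in any control library, and they passed the filter only through siRNA2. Against a floor of 3 counts per control library COL1A2 was at least 10.5-fold higher with siRNA2, and COL3A1 at least 6.16-fold. The list's medians stayed at -0.34 and 0.81 with the pair left out for siRNA1 and set against that floor for siRNA2. They could not have moved, as the pair lay on opposite sides of the siRNA1 median and stayed above the siRNA2 median. Without both genes, 16 of 20 rose with siRNA2 (median log2 0.68) and 15 were higher with siRNA2 than with siRNA1 (median log2 1.18). Fibroblast markers summed to 11.6 to 14.2 CPM in controls, 51.0 to 59.5 CPM with siRNA1 and 72.9 to 75.1 CPM with siRNA2, with 6, 5 and 2 of 11 at 0 counts, POSTN in all groups, and COL1A1 made up most of each sum. Leukocyte markers summed to 2.10 to 3.17, 1.52 to 3.23 and 9.09 to 10.4 CPM, with CD3E, MS4A1 and NKG7 among those at 0 throughout. The tested leukocyte markers CD14 (2.11, 1.34 and 8.49 CPM) and CD68 (0.355, 0.433 and 0.856 CPM) rose with siRNA2, and CD68 passed the filter only through the siRNA2 libraries. Endothelial markers summed to 9.38 to 11.5, 6.01 to 7.85 and 18.7 to 20.7 CPM, with ERG of the 8 at 0 throughout. KDR and PECAM1 fell with siRNA1 (log2 -0.91 and -0.62) and rose with siRNA2 (log2 1.53 and 0.62). Epithelial markers summed to 1194 to 1373, 2121 to 2458 and 1415 to 1455 CPM. KRT8 rose with both siRNAs (log2 1.2 and 0.33), as did CLDN4 (log2 0.48 and 0.55), and KRT18 rose with siRNA1 (log2 0.72) and fell with siRNA2 (log2 -0.36). Among the basal B markers AXL fell with both (log2 -3.28 and -1.88), EGFR fell with both (log2 -1.10 and -0.79) and TGFBI rose with both (log2 1.84 and 1.50). The part of cell mixture in these changes was not tested, and in bulk RNA fewer cells of a kind and less RNA per cell cannot be told apart.

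**Figure D5:**
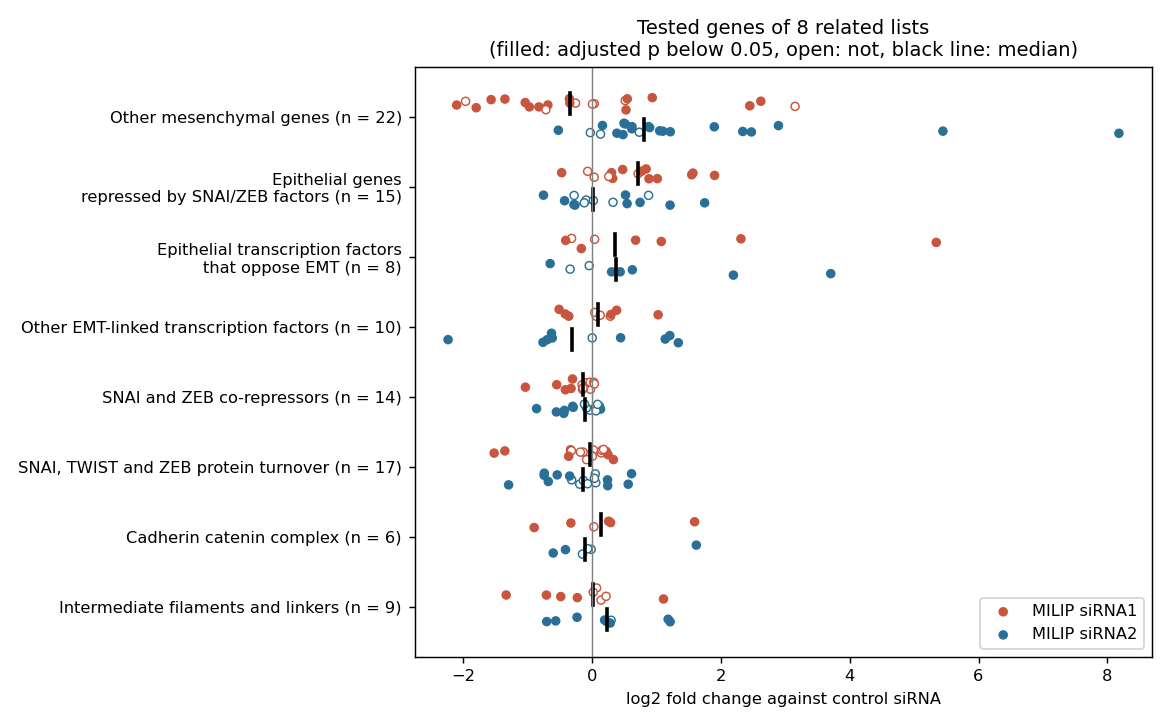
Log2 fold change against control siRNA of the tested genes in 8 lists, siRNA1 above and siRNA2 below in each row. Filled points passed an adjusted p of 0.05, open points did not, and black lines are medians. The largest gap between the medians is that of the other mesenchymal genes (-0.34 and 0.81), and 2 points past 5 with siRNA2 are COL1A2 and COL3A1, whose positions depend on the prior count of the fit because controls hold at most 1 count per library.

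Genes that work with the EMT factors gave medians near 0. The counts of both lists below stand beside the shares of all tested genes. These were 25.1% higher and 25.3% lower with siRNA1, and 27.2% higher and 28.9% lower with siRNA2. All 14 listed co-repressors of the SNAI and ZEB proteins could be tested: 5 fell and 9 did not pass with siRNA1, and 1 rose and 6 fell with siRNA2, with medians of -0.14 and -0.10. SUV39H1, a histone H3 methyltransferase, fell with both (43.0 CPM to 32.4 and 23.8 CPM, log2 -0.41 and -0.86). SUZ12, a subunit of the Polycomb complex PRC2, fell with siRNA1 (log2 -1.03) and had 0.09 with siRNA2 (adjusted p = 0.288). PRMT5, an arginine methyltransferase, fell with siRNA2 (log2 -0.55) and had -0.12 with siRNA1 (adjusted p = 0.0838). Among kinases, ubiquitin ligases and deubiquitinases that set the stability of SNAI, TWIST and ZEB proteins, 17 of 19 could be tested: 3 rose and 4 fell with siRNA1, and 4 rose and 6 fell with siRNA2. PAK1 (log2 -1.51 and -0.34) and LATS2 (log2 -0.36 and -0.67), kinases that act on the Snail protein, and PDLIM2 (log2 -1.35 and -0.74) fell with both. GSK3B, a kinase whose phosphorylation of Snail leads to its breakdown, had 0.03 with siRNA1 (adjusted p = 0.801) and rose with siRNA2 (log2 0.57, adjusted p = 5.69e-07).

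The families of the marker genes were mostly silent or divided. Their counts stand beside 25.1% of all tested genes higher and 25.3% lower with siRNA1, and 27.2% higher and 28.9% lower with siRNA2. Of 16 other classical and type II cadherins, 5 could be tested, with 2 higher and 2 lower with siRNA1 and 1 higher and 1 lower with siRNA2. CDH4, R-cadherin, was the most abundant of them and fell from 116 CPM to 54.9 and 61.9 CPM (log2 -1.08 and -0.91). CDH24 fell with siRNA1 (log2 -0.45) and rose with siRNA2 (log2 0.28). CDH3, P-cadherin, named after its values were seen, was at 0.441 CPM in controls, 6.95 CPM with siRNA1 and 0.377 CPM with siRNA2. It reached the filter level in 1 control, 3 siRNA1 and 0 siRNA2 libraries and counts among the 2 that rose with siRNA1. Of the catenin complex that links cadherins to actin, 6 of 9 genes could be tested. JUP, plakoglobin, rose from 34.4 CPM to 104 and 106 CPM (log2 1.60 and 1.62), and CTNNB1, beta-catenin, rose with siRNA1 (log2 0.26) and fell with siRNA2 (log2 -0.60). Of 13 other intermediate filament and linker genes 9 could be tested: 1 rose and 4 fell with siRNA1, and 5 rose and 3 fell with siRNA2. PLEC, plectin, which ties vimentin filaments to other structures, fell with both (3337 CPM to 1329 and 2264 CPM, log2 -1.33 and -0.56). NES, nestin, a filament protein that assembles with vimentin, fell with siRNA1 (15.0 CPM to 9.22 CPM, log2 -0.70) and rose with siRNA2 (34.9 CPM, log2 1.22). BFSP1 rose with both (log2 1.11 and 1.18).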

How the data were processed

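RNA-seq of 9 MDA-MB-231 libraries was grouped by treatment label. Deposited were counts per gene that the authors made before deposit, with Trimmomatic 0.30, HISAT2 2.0.1, HTSeq 0.6.1 and DESeq named, per the submitters' processing notes, without roles. The FPKM values the authors deposited equal count over exonic size and library total for 100% of values within about 0.005. The notes name hg19, but the table's coordinates are those of GRCh38: 99.98% of 58394 identifiers found in GENCODE v29 overlap the same gene there. Strandedness was not stated.

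The main test was edgeR's two-sided quasi-likelihood test (edgeR 4.0.16, R 4.3.3), fitted once to all 9 libraries after TMM scaling and a filterByExpr filter with a minimum count of 10 and total of 15. P-values were adjusted by Benjamini-Hochberg over all genes tested, and genes under 0.05 were called. Each SE of a log2 fold change was derived as its absolute value over the square root of the test's F statistic. Levels are TMM-scaled CPM. The 15345 genes tested held 99.87% of counts, and 45267 others fell below the filter. The common biological coefficient of variation was 0.0641. Chi-square per gene between libraries of one group was 2.18 to 8.78, highest between control libraries 1 and 3, and no pair was identical. Alternatives were DESeq2 1.42.0, other scalings and filters, limma 3.58.1 on log2(FPKM + 1) and log2(FPKM + 0.1), a replicate block, 2 groups alone and each library left out. UTR words and figures used Python 3.11.15. All 6 microRNAs looked up were found in the RefSeq table.

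The members and the gene lists were chosen with earlier results of these data known. All members are named; from each list, up to 3 genes called in both comparisons with control, ranked by the smaller of their fold changes, otherwise up to 2 called with either, plus the 3 genes most like each member called with both. CDH1, CDH3, GSK3B, ID4, EPCAM, PKP2, CLDN1, DSP, ESRP2, COL1A2 and COL3A1 were added after their values were seen. Raw reads were not used here.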

Additional observations from a re-analysis of the deposited data

Results flagged for a closer look

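SNAI2 and ZEB2 moved in opposite directions with the siRNAs, which both target the same RNA. SNAI2 was lower than control in 3 of 3 siRNA1 libraries and higher in 3 of 3 siRNA2 libraries, and the difference between the siRNAs was 1.6 on the log2 scale (SE 0.117, adjusted p = 1.43e-11, edgeR). ZEB2 did the same, with a difference of 2.25 (SE 0.14, adjusted p = 6.45e-13). Among these 10 genes the 3 prime UTR of ZEB2 holds the words linked to both siRNAs, and that of SNAI2 holds neither. Opposite calls of this kind were made for 1524 of the 15345 tested genes, and 60.4% of tested genes differed between the siRNAs. The cause was not tested.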

How the results depend on the processing

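Counts of calls and the targeted gene gave 250 values under the alternatives that stayed within the limits set for them and 2 that did not: with a mean FPKM of at least 1, where 11597 genes were tested and only SNAI1, SNAI2, ZEB1 and VIM remained of the 10, 1 member rose with siRNA1 and 1 was lower with siRNA2 than with siRNA1. The limit for a count was a 1.5-fold difference from the main fit, so 2 calls in place of 3 stayed within it. Sets without 1 library were also counted for comparisons that do not use that library, here and for the single members. Of the values of single members, 405 kept direction and side of the threshold. The log2 value of CDH2 with siRNA2 turned to -0.28 without control replicate 1 and to -0.31 without siRNA2 replicate 1, ran up to 0.25 over the other sets without 1 library, and passed in none of these. CDH11 with siRNA1 lost its call with DESeq2 (adjusted p = 0.0756), no filter (0.0599), limma on log2(FPKM + 1) (0.206) or log2(FPKM + 0.1) (0.112) and in 4 of the sets without 1 library, and ZEB2 with siRNA2 lost it with log2(FPKM + 0.1) (0.097) and without siRNA2 replicate 1 (0.0532). Over the sets without 1 library, members that rose numbered 2 to 3 and members that fell 3 with siRNA1, and the same numbers held with siRNA2. Counts of at most 31 per library limit PRRX1, CDH2 and CDH11.

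Deviations of same-numbered libraries correlated at -0.05 to 0.097, within the -0.135 to 0.139 of differently numbered libraries. No pairing by number was thus seen, though 3 libraries per group cannot show that there was none. With the replicate number as a block, 2 members rose and 3 fell with siRNA1, as CDH11 missed the threshold (adjusted p = 0.0503), 3 rose and 3 fell with siRNA2, and over all genes 3849 rose and 3901 fell with siRNA1 and 4171 and 4433 with siRNA2.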
